A study of Mus musculus with 2 samples.

Results

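The genes described here are 10 regulators of the integrated stress response in mouse embryonic stem (ES) cells: Atf4, Atf5, Atf3, Ddit3, Cebpb, Trib3, Nupr1, Chac1, Sesn2 and Ddit4. They were chosen by their place around the transcription factor ATF4, and several were picked for a much higher signal in the Eed knockout (Eed KO) than in the control. The contrast between the arrays therefore selected part of the list, and its values are given below as a description with no test. The 10 genes are among 18193 genes named on the array, and 17 of its 45101 probe sets carry 1 of their symbols. Each probe set combines several short oligonucleotides into 1 signal.

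The data analysed here are 2 arrays of the Affymetrix MOE430 2.0 type. 1 array carries total RNA of mouse ES cells with a constitutive knockout of Eed, and 1 carries the control ES cells of that knockout. EED belongs to the core of Polycomb repressive complex 2, the enzyme that places the silencing mark H3K27me3. The question is which transcripts differ between the library labelled Eed KO and its control. The way Eed was disrupted, the parent line, the number of clones and the use of feeder cells are not given in the sources used here. With 1 array a group there is no replicate, no standard deviation between samples and no p-value, and a difference is one between these 2 arrays.

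In the integrated stress response, kinases that sense amino acid shortage, misfolded protein in the endoplasmic reticulum, lack of heme or double-stranded RNA phosphorylate the translation factor eIF2alpha. General protein synthesis then drops, while the Atf4 messenger RNA is translated more. ATF4 pairs with other leucine zipper proteins, binds C/EBP-ATF response elements and activates genes of amino acid supply together with its own partners and inhibitors. Arrays measure messenger RNA only, so neither eIF2alpha phosphorylation nor ATF4 protein was measured.

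On the Eed KO array, 8 of the 10 regulators were at least 2-fold higher than on the control array and 0 were at least 2-fold lower. Nupr1 (41.7-fold) and Chac1 (24.4-fold) had the highest ratios of all genes whose signal passed a floor on both arrays. This floor, 61.3, is the 40th percentile of the signals on both arrays, and signals under it were set to it. Of all 13794 measured genes, meaning genes above the floor on at least 1 array, 10.8% were higher by 2-fold or more and 3.27% were lower by as much. The selection used this contrast, so nothing is read from the share of the regulators against that background. All 10 regulators were above the floor on both arrays. Their median log2 ratio, Eed KO over control, was 2.03, and that of all measured genes was 0.12.

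The cells and arrays themselves were checked with markers. All 12 ES cell markers were above the floor on both arrays. By the probe set that stood for each gene, 1 of these was called higher and 0 lower, with log2 ratios of both signs. With a common median for both arrays 2 were called lower. Klf4, a factor of naive pluripotency, was the higher one (log2 ratio 1.37). Pou5f1, which encodes Oct4, read 12948 on the control array and 11352 on the knockout array (-0.19), Sox2 had a log2 ratio of -0.47, Nanog of 0.85 and Lin28a of -0.97. The other Lin28a probe set, at 818.9 and 909.2, had a log2 ratio of 0.15. A second Sall4 probe set, at 3067 and 1046, had -1.55, beside -0.34 for the one that stood for the gene. A second Utf1 probe set, at 966.1 and 326.1, had -1.57, beside -0.71. The brighter Eed probe set read 10101 and 11456 (log2 ratio 0.18), so its signal was not lower in the library labelled Eed KO. The other Eed probe set, at 49.0 and 56.7, did not reach the floor on either array. Since the site of the disruption is not known, neither value checks the label, and absence of EED was not measured. Of 23 measured fibroblast markers 18 passed 2-fold on the Eed KO array, and the summed signal of the 25 on the array was 30379 on the control array and 64865 on the knockout array. Their highest ratio was 6.84-fold (Prrx1), and Lum and Fap did not reach the floor on either array. With a common median for both arrays Vim (0.93), Acta2 (0.92) and Timp1 (0.88), among others, fell under 2-fold. With the least different probe set Pdgfrb (0.86), Col1a2 (0.81), Col5a1 (0.50) and Lox (0.34) did so. Of 12 primitive endoderm markers 7 were higher, and 3 with the least different probe set (summed signal 11796 and 20372), and of 11 measured trophoblast markers 7 (summed signal 9069 and 18042), with Cdx2 at 43.0 and 47.8, under the floor. Of these trophoblast markers, Krt8 (0.78) and Krt7 (0.69) fell under 2-fold with a common median for both arrays. Beside the marker counts, 10.8% of all measured genes were higher with the deposited scaling. In RNA of a whole culture, more cells of a type and more RNA per cell cannot be told apart, and the part of other cell types in the ratios of the regulators was not tested.

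ATF4 acts through a known promoter element, so the promoters of the regulators were searched for it. Windows of 300 bases, from 250 bases before to 50 bases after an annotated start, were taken from RefSeq on GRCm38.p6, and all 10 genes matched. The core of the C/EBP-ATF response element, TGATGNAA, was searched on both strands. It was present in the windows of Nupr1, Chac1, Atf3 and Trib3, which are 4 of the 10 regulators. It was present in 322 of 11097 measured genes with a window (2.9%) and in 1219 of all 27025 genes with a window (4.51%). The regulators were chosen by their place around ATF4, so nothing is read from their share beside these. The cyclic AMP response element, TGACGTCA, cannot match the same 8 bases as this core and was found in 0 of the 10 and in 3.29% of measured genes. A match describes letters in a window and does not show binding, and the absence of a match in the other windows says only that these letters were not in them.

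The 4 windows are shown because their genes had ratios from 4.20-fold to 41.7-fold and carry the element core. Each is written 5′ to 3′ along the gene with the core in capitals. In all 4 the core lies on the opposite strand of the gene, so it reads as its reverse complement. The Nupr1 window is at chr7:126625421-126625720 on the minus strand, the Chac1 window at chr2:119350992-119351291 on the plus strand, the Atf3 window at chr1:191183284-191183583 on the minus strand and the Trib3 window at chr2:152344011-152344310 on the minus strand.
Nupr1: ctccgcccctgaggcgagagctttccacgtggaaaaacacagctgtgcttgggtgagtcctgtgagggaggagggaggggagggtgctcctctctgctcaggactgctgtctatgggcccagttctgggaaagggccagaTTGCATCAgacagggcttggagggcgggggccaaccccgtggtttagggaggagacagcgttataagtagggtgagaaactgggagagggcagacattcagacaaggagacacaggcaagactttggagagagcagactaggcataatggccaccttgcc
Chac1: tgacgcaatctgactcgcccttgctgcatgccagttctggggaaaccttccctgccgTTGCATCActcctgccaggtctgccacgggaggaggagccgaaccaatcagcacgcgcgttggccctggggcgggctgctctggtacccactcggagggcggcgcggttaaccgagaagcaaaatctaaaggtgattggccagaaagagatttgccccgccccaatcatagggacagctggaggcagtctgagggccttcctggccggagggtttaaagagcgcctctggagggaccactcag
Atf3: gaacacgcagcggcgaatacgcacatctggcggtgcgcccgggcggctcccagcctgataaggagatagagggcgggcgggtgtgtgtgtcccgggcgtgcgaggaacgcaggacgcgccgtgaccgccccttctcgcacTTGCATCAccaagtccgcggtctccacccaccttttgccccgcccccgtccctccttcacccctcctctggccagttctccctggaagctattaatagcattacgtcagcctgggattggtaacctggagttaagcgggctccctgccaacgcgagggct
Trib3: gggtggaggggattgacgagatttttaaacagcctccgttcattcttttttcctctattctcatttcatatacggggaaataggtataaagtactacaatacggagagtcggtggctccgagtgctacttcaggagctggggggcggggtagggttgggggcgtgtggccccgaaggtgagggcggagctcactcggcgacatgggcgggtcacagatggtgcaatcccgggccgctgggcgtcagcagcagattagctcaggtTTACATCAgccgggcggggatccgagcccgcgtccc

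The core began 110 bases before the start in Nupr1 and in Atf3, and 193 bases before it in Chac1. In Trib3 it began at base 15 of the transcript, counted from the start. Nupr1, Chac1 and Atf3 shared the form TGATGCAA, and Trib3 had TGATGTAA.

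The same core was also in the windows of 6 related genes that passed 2-fold on the Eed KO array. Other measured related genes held the core but stayed under 2-fold, and their sites are not printed. They were Yars (log2 ratio 0.73), Aars (0.65), Slc7a11 (0.62), Iars (0.61), Gars (0.53), Fgf21 (0.53), Tars (0.32) and Got1 (-0.15). The 6 printed genes were thus picked after their values and matches were seen. For them and the regulators 28 bases around each core are printed for comparison. Each is written on the strand on which the core reads forward, with the core in capitals. All coordinates are on GRCm38.p6. The Nupr1 site is at chr7:126625563-126625590 (plus strand), the Chac1 site at chr2:119351039-119351066 (minus strand), the Atf3 site at chr1:191183426-191183453 (plus strand) and the Trib3 site at chr2:152344029-152344056 (plus strand). The Jdp2 site is at chr12:85599373-85599400 (plus strand), the Asns site at chr6:7693215-7693242 (minus strand) and the Pck2 site at chr14:55540153-55540180 (minus strand). The Slc1a4 site is at chr11:20332700-20332727 (plus strand), the Herpud1 site at chr8:94386307-94386334 (minus strand) and the Vldlr site at chr19:27216810-27216837 (minus strand).
Nupr1: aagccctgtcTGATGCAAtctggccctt
Chac1: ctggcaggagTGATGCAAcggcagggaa
Atf3: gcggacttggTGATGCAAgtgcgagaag
Trib3: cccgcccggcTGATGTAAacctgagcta
Jdp2: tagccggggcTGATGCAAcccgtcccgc
Asns: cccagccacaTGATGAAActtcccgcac
Pck2: tgtaagatacTGATGTAActttgaaggc
Slc1a4: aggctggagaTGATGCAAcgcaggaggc
Herpud1: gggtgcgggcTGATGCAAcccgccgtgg
Vldlr: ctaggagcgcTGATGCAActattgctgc

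Among gene lists written around this response, the core was in the windows of 5 of 9 genes of the tRNA synthetase list, 4 of 12 amino acid and one-carbon enzyme genes, 2 of 7 amino acid transporter genes and 3 of 13 other targets of ATF4 or of CHOP, the protein of Ddit3. It was in 0 of 17 genes of the other branches of the unfolded protein response and 0 of 11 genes for the eIF2alpha kinases, phosphatase subunits and eIF2B. The regulators and the lists for ATF4 targets were drawn up from knowledge of ATF4, so a high share there is not independent of the element. Of measured genes called higher 4.33% had the core (50 of 1156), of those called lower 3.93% (14 of 356), and of those within 2-fold 2.69% (258 of 9585). These shares are descriptions and were not tested.

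**Figure D1:**
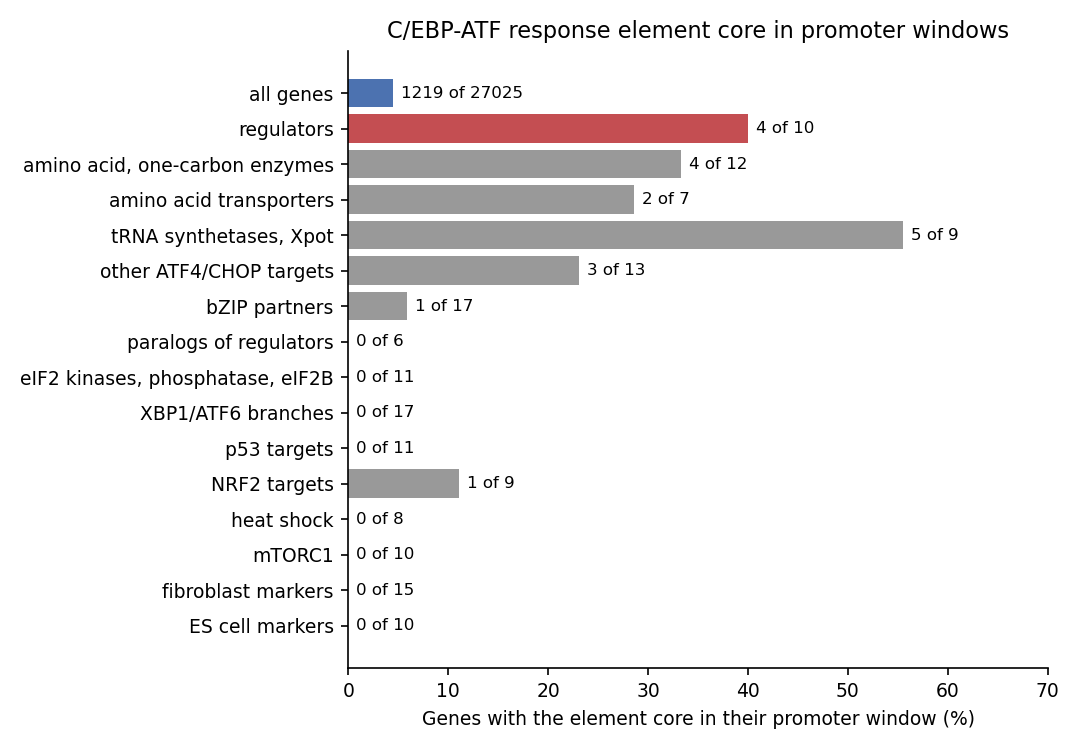
Share of genes (percent, horizontal axis) whose 300-base promoter window holds the C/EBP-ATF response element core, for all genes with a window (blue), the regulators (red) and related gene lists (grey), with the counts printed at each bar. The tRNA synthetases (5 of 9) and the regulators (4 of 10) have the longest bars, against 1219 of 27025 for all genes. Both were listed from knowledge of ATF4, so their bars are not independent of the element.

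The transcription factors at the head of the response were higher in the Eed KO by different amounts. Atf4, the central factor, read 4879 on the control array and 11907 on the knockout array with its brightest probe set, a 2.44-fold ratio (log2 ratio 1.29). Its next probe set read 1728 and 3824, 2.21-fold higher. A further Atf4 probe set, at 12.6 and 23.6, did not reach the floor on either array and gives no ratio. The 2 measured probe sets of Atf4 thus lay close together, and with a common median for both arrays the ratio was just under 2-fold (log2 ratio 0.98).

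Ddit3 encodes CHOP, a leucine zipper factor downstream of ATF4 that is linked to cell death in prolonged stress. It read 187.7 on the control array and 985.8 on the knockout array, 5.25-fold higher (log2 ratio 2.39). With its other probe set it read 35.4 on the control array, under the floor, and 214.3 on the knockout array, which makes it at least 3.50-fold higher. Both Ddit3 probe sets were thus brighter on the Eed KO array.

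Atf3, a stress-induced factor of the ATF family, read 71.7 on the control array and 423.9 on the knockout array, 5.91-fold higher (log2 ratio 2.56). Its control signal lay just above the floor. Of the 10 ratios it moved most with the floor, to a log2 ratio of 1.33 when the floor was set at the 60th percentile. Atf5, an ATF4-like factor whose translation is controlled in a similar way, read 232.3 and 921.9, 3.97-fold higher (log2 ratio 1.99). Both Atf3 and Atf5 have 1 probe set each, so no second probe set checks them.

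Cebpb encodes C/EBPbeta, which pairs with ATF4 and with CHOP. It read 509.0 on the control array and 1740 on the knockout array, 3.42-fold higher (log2 ratio 1.77). Its other probe set read 169.4 and 492.5, 2.91-fold higher. The 2 Cebpb probe sets gave log2 ratios 1.77 and 1.54, closer together than the spread between probe sets at these signals.

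That spread is the only repeated measurement in the data. It was taken from genes with several probe sets above the floor on both arrays. The brightest pair of each gene was compared and grouped by the signal of the dimmer one. The SD of a log2 ratio was 0.49 at signals up to 128, 0.33 between 256 and 512, 0.25 between 512 and 1024 and 0.18 above 2048. Differences between cultures do not enter it.

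The effectors and inhibitors of the response spanned the widest range. Trib3, a pseudokinase that binds and inhibits ATF4 and CHOP, read 482.0 on the control array and 2025 on the knockout array, 4.20-fold higher (log2 ratio 2.07). Its other probe set read 337.8 and 1972, 5.84-fold higher. The first of these is a probe set that can match other transcripts (name ending in _x_at), and the ratio without such probe sets was the higher one.

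Nupr1, a small chromatin-associated protein induced by many stresses, had the highest ratio. Its main probe set read 120.3 on the control array and 5017 on the knockout array, a log2 ratio of 5.38. The other read 133.9 and 3952, 29.5-fold higher (log2 ratio 4.88). Nupr1 was thus near the low end of the measured range on the control array with both probe sets, and well above it on the Eed KO array.

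Chac1 encodes an enzyme that breaks down glutathione and is a known target of ATF4 and CHOP. Its only probe set read 168.3 on the control array and 4099 on the knockout array, a log2 ratio of 4.61. Nupr1 and Chac1 ranked 1 and 2 by ratio among the 11815 genes that passed the floor on both. The genes with the ratios most like theirs were the pentraxin gene Ptx3 at rank 3 (log2 ratio 3.79) and the lipoprotein lipase gene Lpl at rank 4 (log2 ratio 3.73). Their log2 ratios differed from that of Chac1 by -0.81 and -0.87. With 2 arrays a pattern is a single ratio, and likeness means no more than a small difference in log2 ratio.

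The 2 regulators that restrain the growth kinase complex mTORC1 had the lowest ratios. Ddit4, also called REDD1, read 2268 on the control array and 4363 on the knockout array, 1.92-fold higher (log2 ratio 0.94). Sesn2, a leucine sensor of the sestrin family, read 807.0 and 1502 with its main probe set, 1.86-fold higher (log2 ratio 0.90), and 766.7 and 946.6 with the other, 1.23-fold higher. Both genes lay just under 2-fold, and Atf4 was the regulator just above it. With quantile-normalized arrays, or with the intensity trend taken out, Ddit4 passed 2-fold and 9 of the 10 were called. Sesn2 was under 2-fold in all 12 settings of scaling, floor and probe set.

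**Figure D2:**
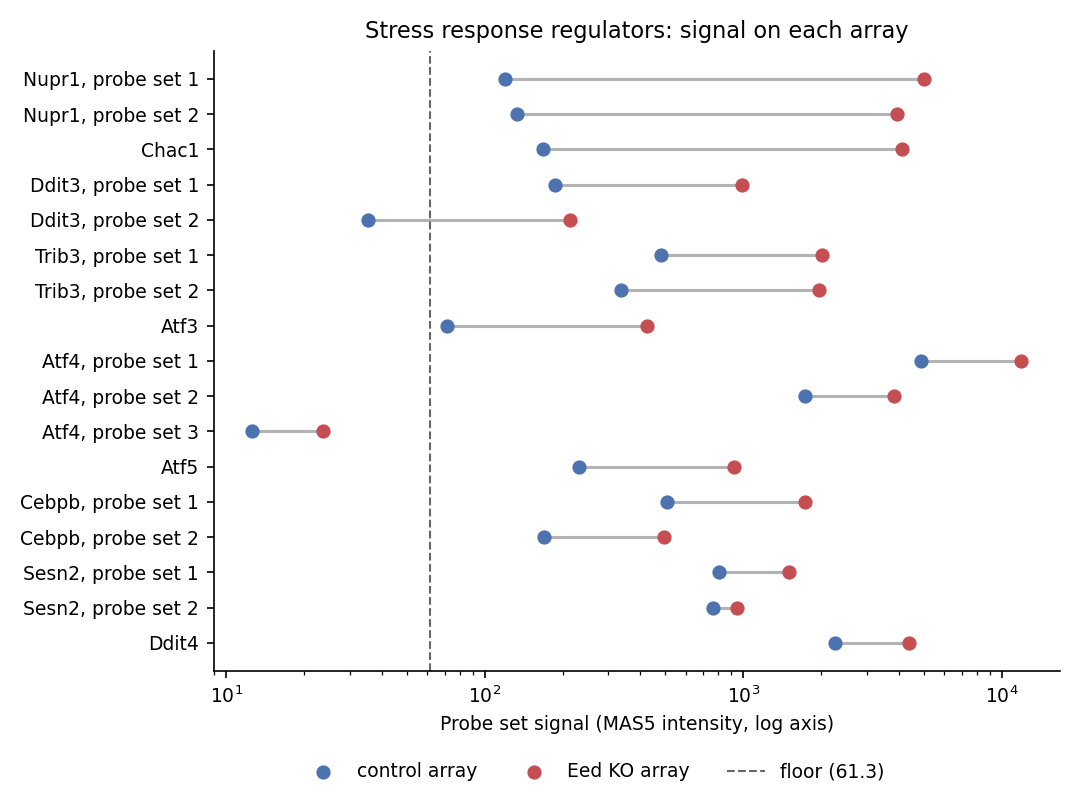
Signal of each of the 17 probe sets of the regulators (MAS5 intensity, log axis) on the control array (blue) and the Eed KO array (red), 1 array each, with the floor of 61.3 dashed. Every red point lies to the right of its blue point, with the widest gaps for Nupr1 and Chac1 and the narrowest for the second Sesn2 probe set (766.7 and 946.6).

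Ordered by ratio, the regulators ran Nupr1, Chac1, Atf3, Ddit3, Trib3, Atf5, Cebpb, Atf4, Ddit4 and Sesn2. Of the 9 steps between neighbours 4 were larger than the combined probe set spread, namely Nupr1 to Chac1 (0.78 on the log2 scale), Chac1 to Atf3 (2.04), Cebpb to Atf4 (0.49) and Atf4 to Ddit4 (0.34). The other 5 steps were within it. Among Atf3, Ddit3, Trib3, Atf5 and Cebpb, genes farther apart in the order did pass it. Atf3 was above Trib3 by 0.49 (spread 0.48), above Atf5 by 0.58 (0.53) and above Cebpb by 0.79 (0.48), and Ddit3 was above Cebpb by 0.62 (0.41). The place of Atf3 depended on the setting. The other Trib3 probe set had a log2 ratio of 2.55, beside 2.56 for Atf3. With the floor at the 60th percentile Atf3 (1.33) was below Cebpb (1.77), Atf5 (1.99) and Trib3 (2.07). Among the 11815 genes above the floor on both arrays Atf3 ranked 52, Ddit3 66, Trib3 142, Atf5 169, Cebpb 270, Atf4 667, Ddit4 1289 and Sesn2 1399. The regulators thus ranged from the very top of the ranking to a zone held by many genes.

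**Figure D3:**
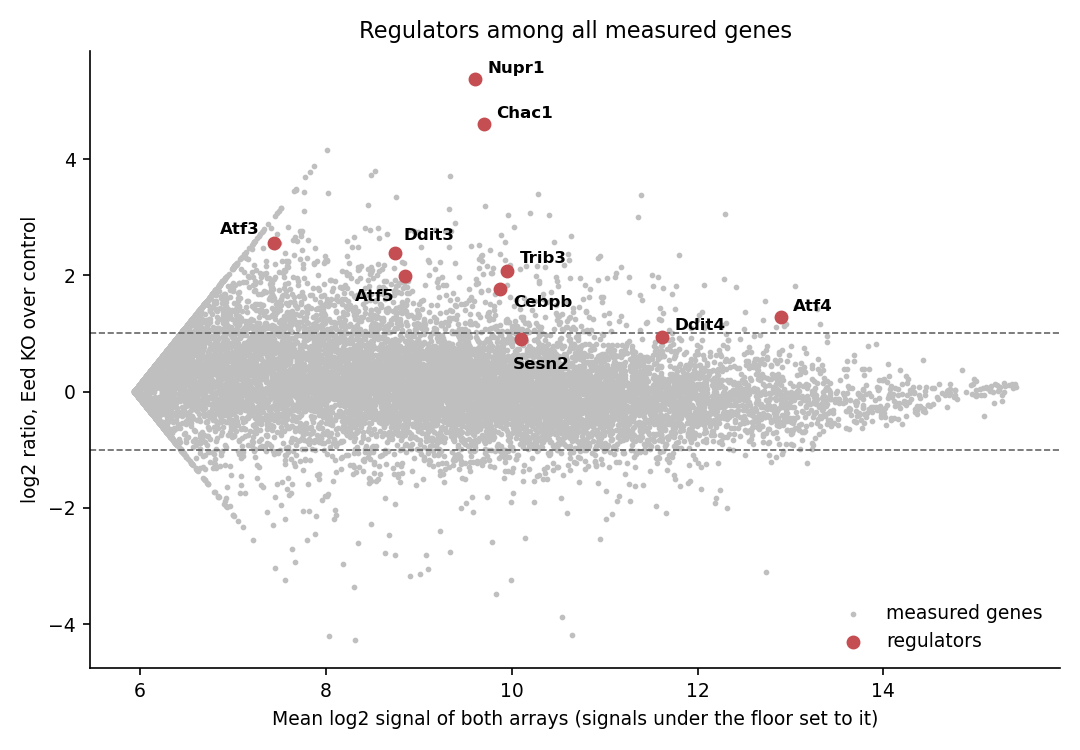
Each measured gene (grey) by its mean log2 signal over both arrays and its log2 ratio, Eed KO over control, with the regulators in red and 2-fold dashed. Nupr1 (5.38) and Chac1 (4.61) stand above all other points, while Sesn2 (0.90) and Ddit4 (0.94) lie just under the upper dashed line.

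The scale of the arrays bears on the number of calls. With the deposited scaling 76.7% of all calls were higher, and with a common median for both arrays 45.8%, while the median over all measured genes moved from 0.12 to -0.16. The share was 57.6% with scaling on the poly-A spikes, 70.4% on the hybridization spikes, 64.7% after quantile normalization and 66.2% with the intensity trend taken out. With a common median for both arrays 7 of the 10 regulators were still at least 2-fold higher, beside 6.35% of all measured genes. At a 1.5-fold limit all 10 were higher, beside 23.3% of all measured genes. At a 3-fold limit 7 of the 10 were higher, beside 3.53% of all measured genes. All 10 regulators had a log2 ratio above 0 in each of the 11 alternative settings of scaling, floor and probe set that were tried.

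**Figure D4:**
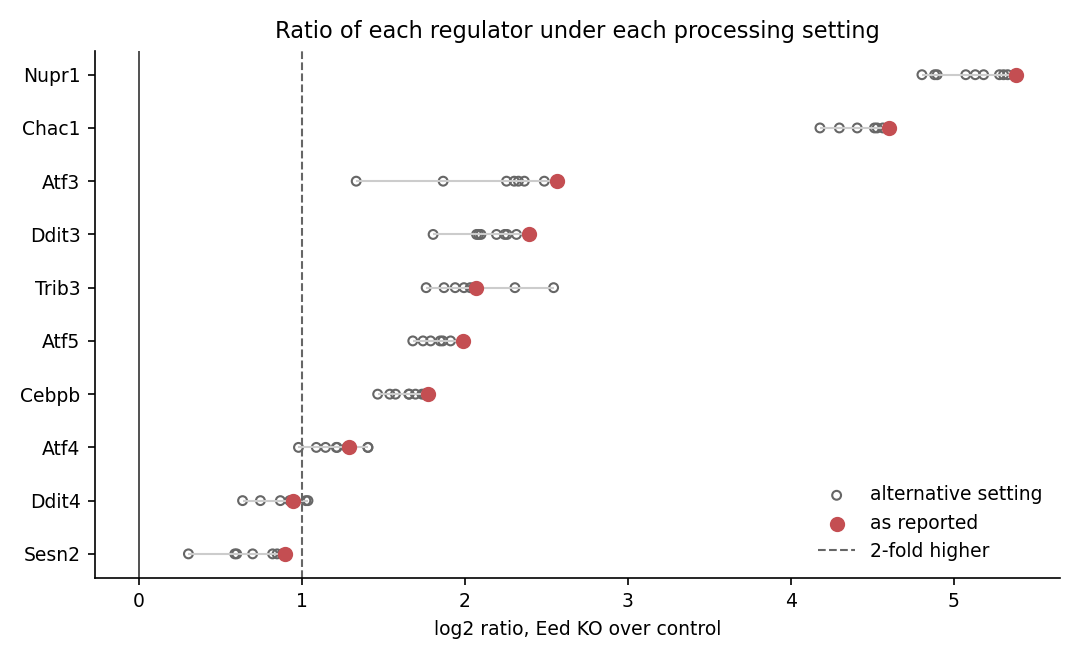
Log2 ratio of each regulator, Eed KO over control, as reported (red) and under 11 alternative settings (open circles), with 2-fold dashed. Atf3 has the widest range (1.33 to 2.56), and Atf4 crosses the dashed line in 1 setting (0.98).

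None of the listed genes that control eIF2alpha differed by 2-fold with the deposited scaling, by the probe set that stood for each. Of all 13794 measured genes 11860 were also within 2-fold, so nothing is read from this count. Of 14 measured genes for the kinases, phosphatase subunits, eIF2B and their helpers, 0 were higher and 0 lower, with a median log2 ratio of 0.07. The median was -0.23 when both arrays were brought to a common median, -0.12 with the poly-A spikes and -0.00 with the hybridization spikes. A second probe set of the phosphatase subunit gene Ppp1r15b, at 91.8 and 226.0, had a log2 ratio of 1.30. The one that stood for this gene had 0.40. The 4 kinases had small ratios of both signs. Eif2ak1, the heme-regulated kinase, read 829.7 on the control array and 806.7 on the knockout array (log2 ratio -0.04, positive in some settings). Eif2ak2, the kinase for double-stranded RNA known as PKR, read 228.9 and 361.4 (0.66). Eif2ak3, the endoplasmic reticulum kinase known as PERK, read 897.9 and 1087 (0.28, and -0.03 with a common median for both arrays). Eif2ak4, the amino acid sensor GCN2, read 321.6 and 196.0 (-0.71, and -1.02 with a common median for both arrays). The kinases thus showed no 2-fold difference with the deposited scaling, like most measured genes, and their activity was not measured.

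Genes that supply amino acids and are known ATF4 targets were listed with earlier results of these data known. Their counts are therefore descriptions. Of 13 measured enzymes of amino acid and one-carbon synthesis 8 were at least 2-fold higher and 0 lower, with a median log2 ratio of 1.11. Of all measured genes 10.8% were higher. With a common median for both arrays, and with scaling on the poly-A spikes, 4 of the enzymes were higher. The shares of all measured genes were then 6.35% and 7.56%. Pck2, the mitochondrial phosphoenolpyruvate carboxykinase, read 347.1 on the control array and 2849 on the knockout array (8.21-fold). Aldh1l2, a mitochondrial folate enzyme, read 73.5 and 414.0 (5.63-fold), and Aldh18a1, of proline synthesis, read 1001 and 3780 (3.78-fold). Mthfd2, a mitochondrial folate enzyme, read 1565 and 4674 (2.99-fold). The weakest Aldh18a1 probe set had a log2 ratio of 0.73.

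Amino acid transporters went both ways. Of 10 measured genes 3 were called higher and 1 lower (median log2 ratio 0.59), beside 10.8% and 3.27% of all measured genes. The cationic amino acid transporter gene Slc7a1 read 878.9 on the control array and 4327 on the knockout array (4.92-fold), the glycine transporter gene Slc6a9 233.4 and 786.7 (3.37-fold) and the neutral amino acid transporter gene Slc1a4 220.3 and 582.4 (2.64-fold). Slc38a2, which encodes the amino acid transporter SNAT2, went against them at 10776 and 4664 (log2 ratio -1.21), as did its next probe set (-1.24), while its weakest probe set had a log2 ratio of -0.05. In a list of 13 measured genes, cytosolic tRNA synthetases and the tRNA exporter gene Xpot, 2 were higher and 0 lower (median 0.57). The 2 were Cars, for cysteine (2.55-fold), and Nars, for asparagine (2.19-fold). With 10.8% of all measured genes higher, nothing is read from this count.

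Of 15 other measured targets of ATF4 or CHOP 6 were higher and 1 lower (median 0.64), beside 10.8% and 3.27% of all measured genes. Vldlr, a lipoprotein receptor, had a log2 ratio of 3.42, but of 0.10 without probe sets that can match other transcripts. Of its other probe sets, 1 was under the floor on both arrays, and the remaining ones were under it on the control array and read between 65.6 and 386.6 in the Eed KO. Herpud1, of endoplasmic reticulum protein degradation, read 384.0 on the control array and 1672 on the knockout array (4.35-fold), the growth factor gene Vegfa 276.0 and 1113 (4.03-fold) and the secreted glycoprotein gene Stc2 170.9 and 484.5 (2.83-fold). The lower one was Bcl2l11, the cell death gene known as Bim, at 2341 and 1063. In these 4 target lists together the ratios were smaller than those of Nupr1 and Chac1, the highest being that of Vldlr.

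With the deposited scaling, genes of the other unfolded protein response branches stayed within 2-fold by the probe set that stood for each. So did 11860 of all 13794 measured genes. The list of the XBP1 and ATF6 branches leaves out Herpud1, which was counted with the ATF4 or CHOP targets. Of its 19 measured genes 0 were higher and 0 lower, and the log2 ratios ran from -0.88 to 0.86. With a common median for both arrays 2 were lower, the chaperone gene Hspa5 (-1.10) and the disulfide isomerase gene Pdia6 (-1.18), and 1 was lower with the poly-A spikes. With the least different probe set both had log2 ratios above 0 (0.11 and 0.64). Of 14 measured p53 targets 1 was higher, beside 10.8% of all measured genes, so nothing is read from this count. The p53 list includes Sesn1, and also Bbc3, which is in the list of ATF4 or CHOP targets too. The higher one was Pmaip1, a cell death gene, at 1851 and 4263 (log2 ratio 1.20, and 0.90 with a common median for both arrays).

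Partners and paralogs of the regulators were mixed. Of 20 other measured C/EBP, ATF, CREB and AP-1 family genes 4 were higher and 0 lower (median 0.54). With a common median for both arrays 1 was higher. The shares of all measured genes were 10.8% and 6.35%, so nothing is read from these counts. Jdp2, a repressor that pairs with ATF and AP-1 factors, read 135.2 on the control array and 1369 on the knockout array (10.1-fold), and Jun 377.7 and 899.1 (2.38-fold). Nfe2l1, a stress factor of the NRF family, was 2.16-fold higher and Cebpa 2.12-fold. Jdp2 passed 2-fold in all 12 such settings, while Jun, Nfe2l1 and Cebpa did not. The other Jdp2 probe set, at 34.9 and 41.6, did not reach the floor on either array. The choice of probe set therefore did not check Jdp2. Of the paralogs, Chac2 read 281.6 and 666.8 (2.37-fold) and the REDD1 relative Ddit4l 318.8 and 810.2 (2.54-fold, but a log2 ratio of 0.62 with its least different probe set). Trib1 (log2 ratio 0.10), Trib2 (-0.64), Sesn1 (0.30) and Sesn3 (-0.44) were within 2-fold. The Nupr1 paralog, listed as Nupr1l, has a pair of probe sets. The one that stood for it did not reach the floor on either array (27.2 and 37.8). The other read 81.5 on the control array, above the floor, and 9.8 on the knockout array, under it. Its log2 ratio against the floor was -0.41. The probe set spread at signals up to 128 was 0.49, taken from probe sets above the floor on both arrays, unlike this one. The sign of this ratio is therefore not read.

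**Figure D5:**
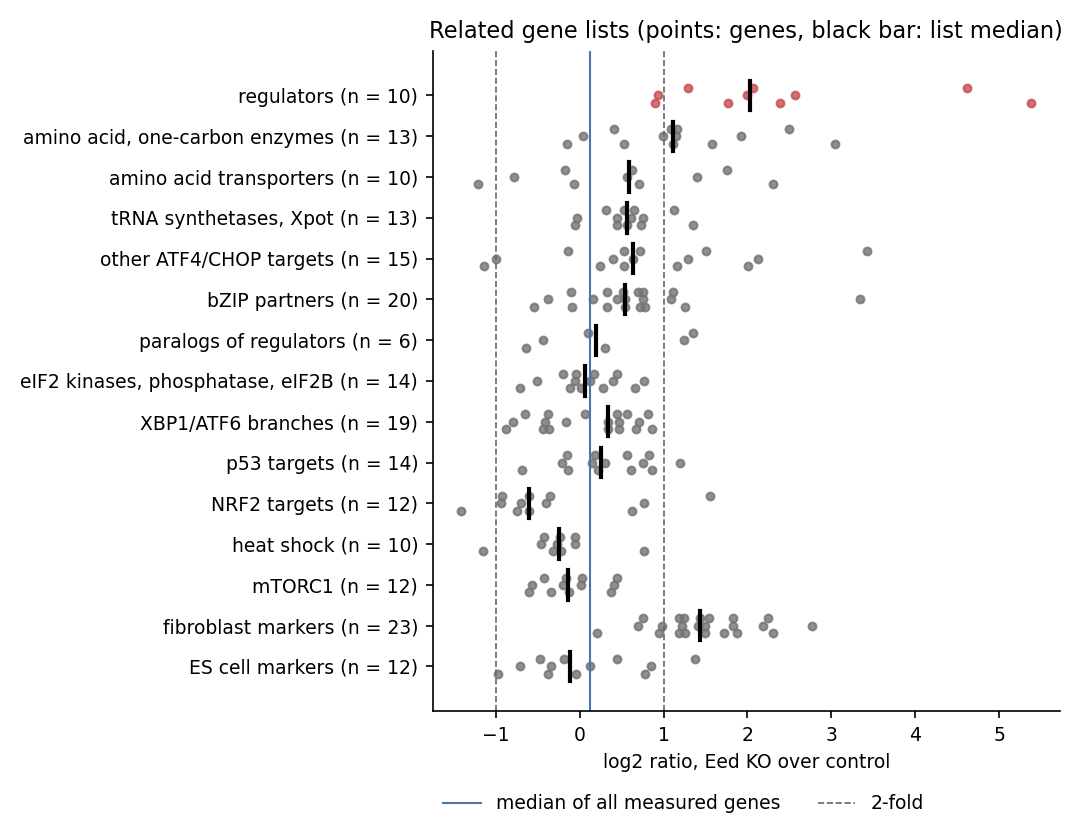
Log2 ratio, Eed KO over control, of each measured gene (points) in the regulators (red) and related lists (grey), with list medians as black bars, the median of all measured genes (0.12) as a blue line and 2-fold dashed. The regulators have a median of 2.03 and the amino acid and one-carbon enzymes of 1.11. The XBP1 and ATF6 branches lie within 2-fold with the deposited scaling, as do 11860 of all 13794 measured genes.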

How the data were processed

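Gene expression was measured on 2 arrays, 1 of control ES cells and 1 of Eed KO ES cells, grouped by their titles. The authors deposited linear intensities, 1 for each probe set, from MAS5 per the submitters' processing notes. They were scaled when deposited: the mean without the lowest and highest 2% of probe sets was 500.00 on both arrays. No detection calls or standard errors were used here. Of 45101 probe sets 34945 had 1 gene symbol in the platform annotation, 932 had several, 9160 had none there (neither kind was named) and 64 were control probe sets.

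For a gene with several probe sets, the brightest by mean log2 signal stood for it. Signals under the 40th percentile (61.3) were set to it, ratios were taken on the log2 scale, and genes were called at 2-fold. The regulators, the gene lists and the motifs were chosen with earlier results of these data known. Genes named were all regulators and their paralogs, the eIF2alpha kinases, the genes ranked next to a regulator in the first 20, and up to 4 called genes with the largest ratios of each list. List members without a probe set of their own were not analysed here. With 1 array a group no test was made, and the number of arrays limits the precision. The gene summary and the motif search were tested on simulated data (Python 3.11.15, pandas 2.3.3, statsmodels 0.14.6 for the lowess fit with span 0.3). Alternatives were 5 other scalings, other floors, a pseudocount, other choices of probe set and limits of 1.5-fold and 3-fold.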

Additional observations from a re-analysis of the deposited data

How the results depend on the processing

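The ratios of the 10 regulators stayed above 1 under all 11 alternatives of scaling, floor and probe set. The count of regulators called higher was 7 to 9 under them, 10 at a 1.5-fold limit (where 23.3% of all measured genes were higher and 10.2% lower) and 7 at a 3-fold limit, with 0 called lower throughout. Their median log2 ratio was 1.72 with a common median for both arrays. The lists of related genes were less stable in count. Enzymes of amino acid and one-carbon synthesis called higher numbered 4 with the same median, 4 with the poly-A spikes and 3 at 3-fold. Of the transporters 5 were higher at 1.5-fold, and 2 were lower with the same median, 2 at 1.5-fold, and 0 as the mean over probe sets, with the least different probe set or at 3-fold. Of the other ATF4 or CHOP targets 3 were higher at 3-fold, and 2 were lower with the same median, with either kind of spike and at 1.5-fold, but 0 with the least different probe set or at 3-fold. Of the tRNA synthetases 1 was higher with the same median, with the poly-A spikes, as the mean over probe sets and with the least different probe set, 6 at 1.5-fold and 0 at 3-fold. The count limits are set by construction, and the cause of the other shifts was not tested. No paired analysis was possible because each group has 1 array. Signals near the floor limit Atf3 and Nupr1 most, as their control signals were low.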

Other observations

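Lists were also drawn up for other stress programmes. The NRF2 list shares Slc7a11 (log2 ratio 0.62) with the amino acid transporters above. Of 12 measured NRF2 targets, the antioxidant genes, 3 had a ratio above 1, with the deposited scaling and with each of 5 other scalings. Their median log2 ratio was -0.60. Gclm, a subunit of the enzyme that starts glutathione synthesis, read 3883 on the control array and 1457 on the knockout array (log2 ratio -1.41), although its other probe set had a log2 ratio of -0.37. Its partner Gclc, named after its values were seen, read 2414 and 1270 (-0.93). Me1, the malic enzyme, was the 1 target at least 2-fold higher (2.93-fold), although its other probe set, at 367.6 and 667.4, had a log2 ratio of 0.86. The number of targets at least 2-fold lower was 1 with the deposited scaling, 5 with a common median for both arrays, 3 with either kind of spike and 0 with the least different probe set. Of all measured genes 3.27% were lower with the deposited scaling and 7.53% with the common median. Chac1, which degrades glutathione, was 24.4-fold higher on the same array, and glutathione itself was not measured.

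Of 10 measured heat shock genes 0 were at least 2-fold higher and 1 was lower, Hsph1, at 4465 on the control array and 2016 on the knockout array (log2 ratio -1.15). Among 12 measured genes of mTORC1 and its upstream regulators 0 differed by 2-fold, with log2 ratios from -0.60 to 0.44, beside the ratios just under 2-fold of Ddit4 and Sesn2. Of all 13794 measured genes 11860 were within 2-fold.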
